A study of Bos taurus with 40 samples.

Results

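PPARA, PPARGC1A and CPT1A, 3 genes that act in the oxidation of fatty acids by the liver during fasting, were followed in the hepatic tissue of Holstein Friesian bulls under restricted and ad libitum feeding. They were taken by their Ensembl identifiers, ENSBTAG00000008063, ENSBTAG00000017024 and ENSBTAG00000021999 in that order, and are 3 of the 24616 genes counted. The identifiers were paired with these names when the genes were selected, as the files hold identifiers alone. All 3 had the minimum of 4 reads per bull that each fit required.

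PPARA encodes a nuclear receptor that is activated by fatty acids and binds DNA together with a retinoid X receptor, at genes of mitochondrial and peroxisomal fatty acid oxidation and of ketone body formation. PPARGC1A encodes PGC-1α, a coactivator that has no DNA-binding activity of its own, is induced in the liver by glucagon and fasting in rodents, and works through PPARA and other nuclear receptors on genes of oxidation and gluconeogenesis. CPT1A encodes the liver form of carnitine palmitoyltransferase 1, the enzyme of the outer mitochondrial membrane that commits long-chain fatty acids to oxidation and is inhibited by malonyl-CoA, and its gene is a target of PPARA. The ruminant liver makes glucose at all times, mostly from the propionate of rumen fermentation, so gluconeogenesis continues in fed animals.

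The study compared bulls given a restricted feed allowance (RES, labelled Restricted) with bulls that had ad libitum access to feed (ADLIB, labelled Control). RES bulls were fed for a growth of 0.6 kg per day over the 125 days of Period 1 and then had ad libitum access for the 55 days of Period 2, in which compensatory growth was sought, whereas ADLIB bulls had free access throughout. All bulls were male, of 1 breed, and ate a diet of 70% concentrate and 30% grass silage. Liver RNA was sequenced from 10 bulls per group, RES and ADLIB on day 125 of Period 1 (TP1) and RES and ADLIB on day 55 of Period 2 (TP2), and the paper describes different bulls slaughtered at each time. Restriction here was a slowed growth over months and not an absence of feed, and the time from the last meal to sampling is not given in the labels.

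Between 8656866 and 15520237 reads per bull were counted on genes. The percentage of reads counted on genes averaged 78.1 ± 1.07% (SD, n = 10) in ADLIB and 75.8 ± 1.79% in RES in Period 1, and 76.6 ± 1.33% in ADLIB and 77.7 ± 1.55% in RES in Period 2. Its base is the reads put on 1 gene, on no gene or on several genes, and not all reads sequenced. In liver tissue, fewer cells of a type and less RNA per cell cannot be told apart. Markers of hepatocytes and of other cell types, and the other genes of fatty acid oxidation, were not analysed here, as no table used here pairs their names with the identifiers. Levels are given as TMM-normalised CPM, read counts scaled to the effective size of each library without gene length, so they compare 1 gene between bulls and not 1 gene with another.

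In Period 1, when the RES bulls were on the restricted allowance, the transcripts of the receptor PPARA and of the enzyme CPT1A were lower in RES than in ADLIB, PPARA by 1.36-fold and CPT1A by 1.35-fold. The coactivator PPARGC1A was not called different. A gene was called when its Benjamini-Hochberg false discovery rate (FDR) in the quasi-likelihood test of edgeR was under 0.05 and the higher group exceeded the lower by at least 25%. Of all 12047 genes tested, 10.3% were called in Period 1 in either direction and 5.23% were called lower in RES, against 2 of these 3 genes called, both lower.

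CPT1A lay between 103 and 190 CPM in the ADLIB bulls, with a median of 146, and between 71.4 and 140 CPM in the RES bulls, with a median of 111. All 10 RES bulls were below the ADLIB mean of 147 ± 25.4 CPM (SD, n = 10), against 109 ± 21.7 CPM in RES. The ranges overlapped, as they did for all but 0.614% of the genes tested, with 3 RES bulls below the lowest ADLIB bull and 6 ADLIB bulls above the highest RES bull. RES differed from ADLIB in CPT1A by a log2 fold change of -0.44 (SE 0.12, 95% interval -0.69 to -0.19, edgeR FDR 0.0190).

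PPARA lay between 48.6 and 111 CPM in ADLIB, with a median of 78.4, and between 39.3 and 86.4 CPM in RES, with a median of 54.8. Of the RES bulls, 9 of 10 were below the ADLIB mean of 79.3 ± 17.2 CPM and 1 was above it, and the RES mean was 58.3 ± 14.4 CPM (SD, n = 10). The ranges overlapped between 48.6 and 86.4 CPM, with 3 ADLIB bulls above every RES bull and 2 RES bulls below every ADLIB bull. For PPARA the log2 fold change was -0.45 (SE 0.14, 95% interval -0.74 to -0.16, edgeR FDR 0.0402).

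PPARGC1A lay between 25.0 and 81.9 CPM in ADLIB, with a median of 47.4, and between 26.7 and 59.4 CPM in RES, with a median of 38.4. The RES range thus lay inside the ADLIB range, while 9 of 10 RES bulls were below the ADLIB mean. Means were 49.3 ± 18.9 CPM in ADLIB and 40.2 ± 8.93 CPM in RES (SD, n = 10). PPARGC1A had a log2 fold change of -0.30 (SE 0.19, 95% interval -0.69 to 0.09, edgeR FDR 0.315), an interval that reaches past the changes of PPARA and CPT1A on one side and past 0 on the other. It was -0.19 (FDR 0.532) without ADLIB bull 1, -0.20 (FDR 0.537) with limma voom and -0.45 (FDR 0.325) with the percentage of reads on genes in the fit.

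**Figure D1:**
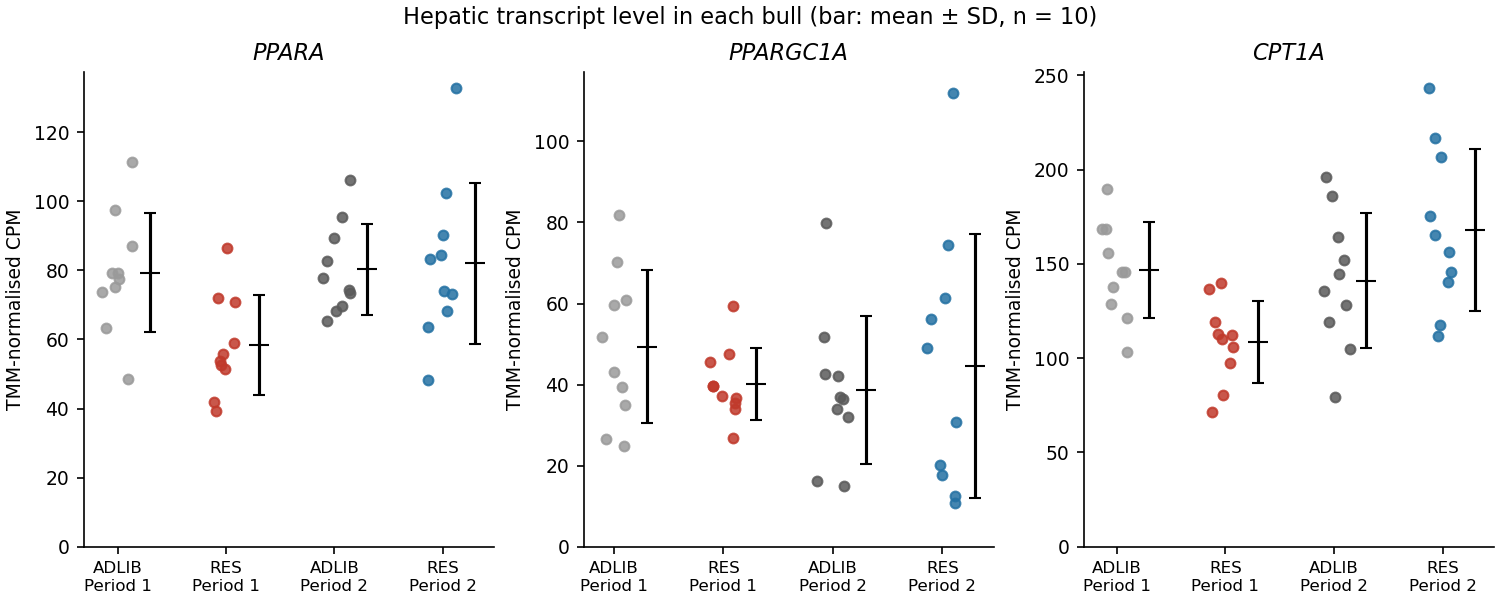
Transcript level of PPARA, PPARGC1A and CPT1A in TMM-normalised CPM (vertical axis, from 0) in each bull (point) of the 4 groups, with the mean and SD of 10 bulls beside each group. In Period 1 the RES points of PPARA and CPT1A sit low, with means of 58.3 and 109 CPM, and the PPARGC1A points of RES in Period 2 spread from 10.9 to 112 CPM.

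The PPARA call was close to the threshold. Leaving out 1 bull ended it in 11 of 20 fits, with the log2 fold change between -0.53 and -0.38 in all 20. The FDR rose above 0.05 without ADLIB bull 1 (0.0555), 2 (0.0869), 4 (0.0610), 6 (0.0749) or 9 (0.0533), and without RES bull 3 (0.0670), 5 (0.0577), 6 (0.0635), 7 (0.0714), 8 (0.0567) or 9 (0.0666). With scaling by the total reads on genes in place of TMM, PPARA was at -0.35 (FDR 0.0893). The CPT1A call was kept without each bull, with FDR from 0.00728 to 0.0378.

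Both calls ended when the percentage of reads counted on genes, which was lower in RES in Period 1, was added to the fit. CPT1A was then at a log2 fold change of -0.18 (SE 0.13, FDR 0.523) and PPARA at -0.36 (SE 0.19, FDR 0.355). Over all genes, 394 were called with that covariate, against 1243 without it.

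**Figure D2:**
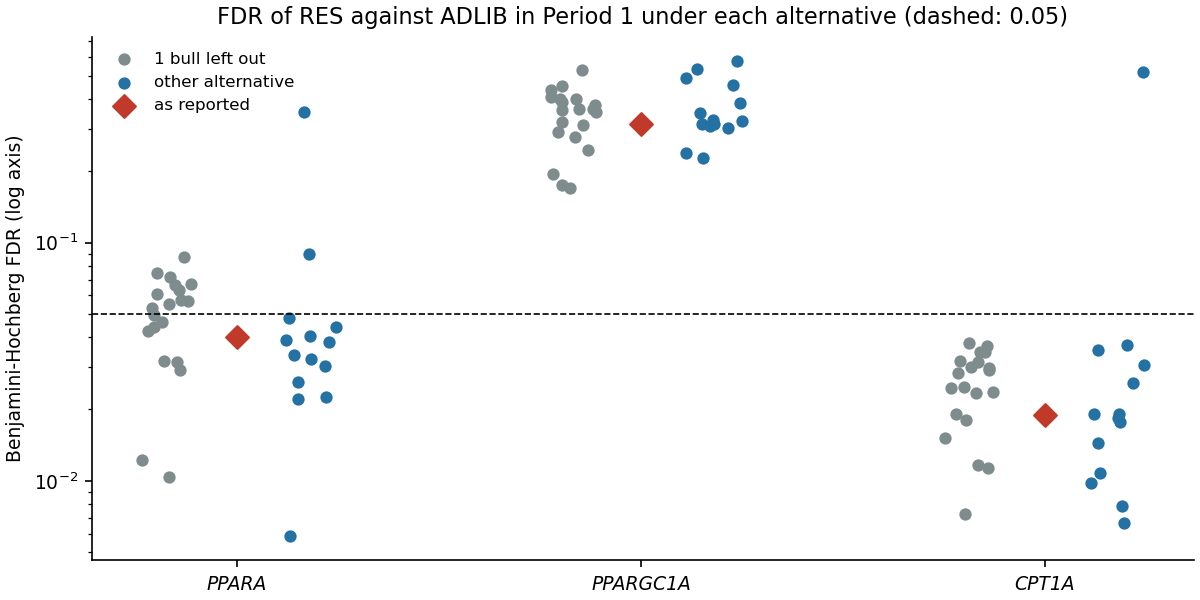
Benjamini-Hochberg FDR of RES against ADLIB in Period 1 for each gene (vertical axis, logarithmic; dashed line at 0.05), as reported (diamond), with 1 bull left out (grey points) and under the other alternatives (blue points). CPT1A stays under the line in all fits but the one that takes in the percentage of reads on genes (0.523), whereas PPARA lies on both sides of it.

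The first number in the library names runs from 1 to 4, and its meaning is not stated. In Period 1, ADLIB held 3, 0, 3 and 4 libraries with the numbers 1 to 4 and RES held 3, 3, 2 and 2. Within the numbers 1, 3 and 4, PPARA was lower in RES by log2 differences of -0.35, -0.85 and -0.35, and CPT1A by -0.39, -0.91 and -0.12. PPARGC1A had no common direction, with differences of -0.55, 0.02 and -0.18. With the number as a block, both calls were kept, PPARA at -0.49 (FDR 0.0444) and CPT1A at -0.46 (FDR 0.0355).

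In Period 2, after 55 days of ad libitum feeding in both groups, none of the 3 genes was called between RES and ADLIB. The quasi-likelihood test called 0% of all 12202 genes there, with 1564 genes at an unadjusted p under 0.05, and the groups were apart in 0% of them. The exact test of edgeR called 37 genes and DESeq2 52, PPARA, PPARGC1A and CPT1A not among them.

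CPT1A lay between 79.4 and 196 CPM in ADLIB, with a median of 140 and a mean of 141 ± 35.7 CPM (SD, n = 10). In RES it lay between 112 and 243 CPM, with a median of 161 and a mean of 168 ± 43.0 CPM. Of the RES bulls 7 were above the ADLIB mean and 3 above the highest ADLIB bull, and 2 ADLIB bulls were below the lowest RES bull. CPT1A thus had a log2 fold change of 0.26 (SE 0.16, 95% interval -0.06 to 0.59, edgeR FDR 0.487), so a level equal to that of ADLIB and one above it both lie in the interval. It was 0.13 (FDR 0.705) with the percentage of reads on genes in the fit and 0.17 (FDR 0.762) with the number of the library name as a block.

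PPARA was at 80.3 ± 13.1 CPM in ADLIB (65.4 to 106, median 76.1) and at 82.0 ± 23.2 CPM in RES (48.3 to 133, median 78.6; SD, n = 10). The RES bulls lay on both sides of the ADLIB mean in equal number, 5 above it and 5 below. The log2 fold change of 0.04 had a 95% interval of -0.24 to 0.33 (edgeR FDR 0.924). The Period 1 estimate of -0.45 lies outside this interval, but the Period 1 interval of -0.74 to -0.16 overlaps it. The test of the difference between the periods, given below, did not pass for PPARA.

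PPARGC1A was at 38.7 ± 18.3 CPM in ADLIB (14.9 to 79.8, median 36.7) and at 44.5 ± 32.6 CPM in RES (10.9 to 112, median 40.0; SD, n = 10). The RES bulls extended past the ADLIB bulls at both ends, 2 below the lowest and 1 above the highest. The log2 fold change was 0.21 (SE 0.39, 95% interval -0.61 to 1.03, edgeR FDR 0.853), and this interval allows a change of either direction larger than those of PPARA and CPT1A in Period 1. Without RES bull 9, the highest, the value was -0.05.

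The difference between the 2 periods was tested as the interaction of diet and period in a fit of all 40 bulls, in which 9.44% of 11868 genes passed at FDR under 0.05, and 3.61% with a higher RES to ADLIB ratio in Period 2. CPT1A passed, with its RES to ADLIB ratio higher in Period 2 by 0.68 on the log2 scale (SE 0.20, 95% interval 0.28 to 1.09, edgeR FDR 0.0252). The ratio of PPARA was higher by 0.47 (SE 0.20, 95% interval 0.07 to 0.88, unadjusted p 0.0235), which did not pass after adjustment (edgeR FDR 0.130). That of PPARGC1A was higher by 0.49 with a wider interval of -0.42 to 1.41 (SE 0.45, edgeR FDR 0.530), and was 0.25 (FDR 0.770) without RES bull 9 of Period 2. It was at 0.14 with total reads as a covariate, at 0.18 with limma voom, at 0.20 with the replicate block and at 0.88 once the percentage of reads on genes was included, with none called. Adding the percentage of reads on genes to this fit brought CPT1A to 0.28 (FDR 0.449). Leaving out single bulls kept the CPT1A call in 40 of 40 fits, between 0.61 and 0.75.

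Among RES bulls, PPARA and CPT1A were higher after realimentation than at the end of restriction. PPARA was 1.41-fold higher and CPT1A 1.55-fold higher, while PPARGC1A was not called. The share of all genes called in this comparison was large, 23.1% in either direction and 10.6% higher in Period 2. The comparison uses the RES bulls of the Period 1 contrast again, so it is not independent of that contrast, and realimentation, age and the time of slaughter cannot be told apart within it.

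For CPT1A, all 10 RES bulls of Period 2 were above the RES mean of Period 1, and 8 were above the highest RES bull of Period 1, at 140 CPM. The log2 fold change was 0.63 (SE 0.14, 95% interval 0.34 to 0.92, edgeR FDR 9.89e-04). For PPARA, 9 of 10 were above the earlier mean and 3 above the highest bull, with a log2 fold change of 0.49 (SE 0.14, 95% interval 0.20 to 0.78, edgeR FDR 0.00887). The ranges of the earlier and later bulls overlapped for all 3 genes, as they did for all but 2.14% of the genes tested. Both calls held with the percentage of reads on genes in the fit, CPT1A at 0.40 (FDR 0.0258) and PPARA at 0.46 (FDR 0.0291), and without each bull in 40 of 40 fits.

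PPARGC1A in RES had a log2 fold change over time of 0.14 (SE 0.32, 95% interval -0.50 to 0.79, edgeR FDR 0.774). Its bulls of Period 2 lay on both sides of those of Period 1, 4 below the lowest of them and 3 above the highest. Without RES bull 9 of Period 2 the value was -0.10.

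Among ADLIB bulls, which kept the same access to feed, none of the 3 genes was called between the periods, where 2.28% of all genes were, and the periods were apart in 0.0337% of genes. The log2 fold change from Period 1 to Period 2 was 0.02 for PPARA (95% interval -0.27 to 0.30, edgeR FDR 0.968) and -0.06 for CPT1A (-0.34 to 0.23, edgeR FDR 0.884). For PPARGC1A it was -0.35 with an interval of -1.0 to 0.29 (edgeR FDR 0.601), with 8 of 10 bulls of Period 2 below the mean of Period 1 and 2 below its lowest bull. Without ADLIB bull 6 of Period 2 it was -0.53 (FDR 0.387), and it was -0.53 once the percentage of reads on genes was included and -0.22 with total-read scaling or with total reads as a covariate.

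**Figure D3:**
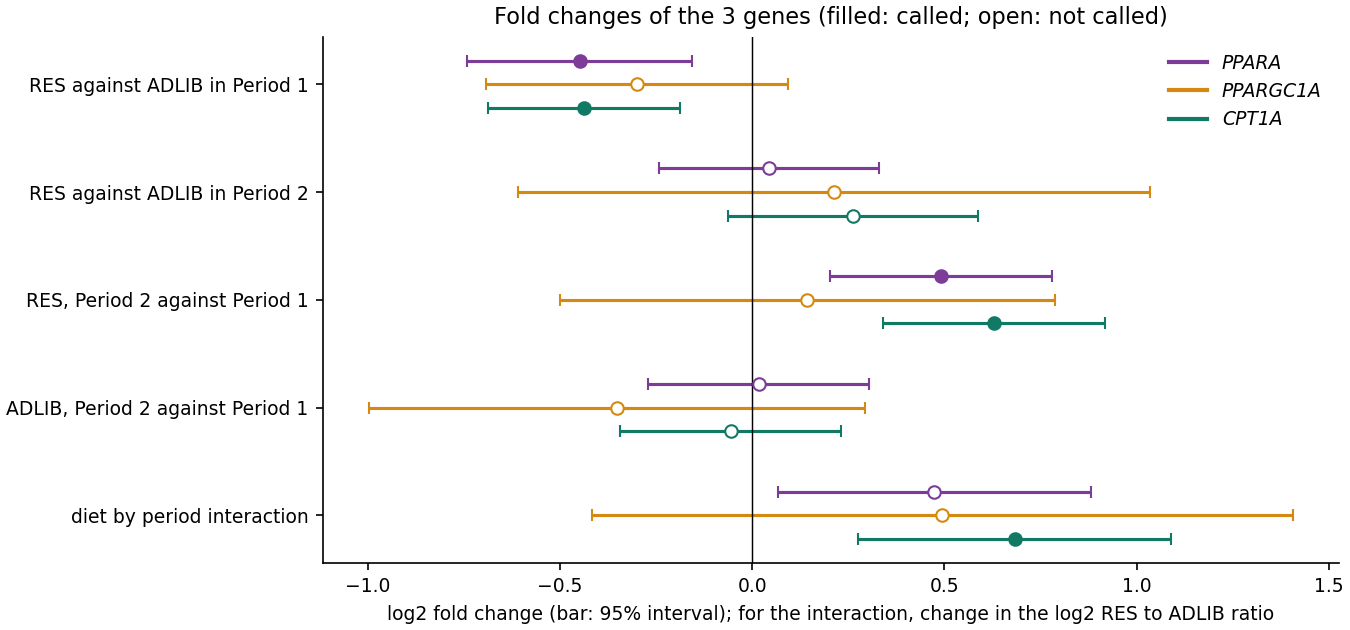
Log2 fold change of each gene (horizontal axis; point) with its 95% interval (bar) in the 5 comparisons, filled where called and open where not; the interaction is the change in the log2 RES to ADLIB ratio from Period 1 to Period 2. PPARA and CPT1A are called in Period 1 and over time in RES, CPT1A alone in the interaction (0.68), and each PPARGC1A interval includes 0.

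The 4 group means of CPM gave a different order for each gene. PPARA ran from RES in Period 1 (58.3 CPM) through ADLIB in Period 1 (79.3) and ADLIB in Period 2 (80.3) to RES in Period 2 (82.0), and only the lowest pair of neighbours differed by a called test. CPT1A ran from RES in Period 1 (109 CPM) through ADLIB in Period 2 (141) and ADLIB in Period 1 (147) to RES in Period 2 (168). The middle pair of CPT1A was not called, and its outer pairs differ in both diet and period and were not tested. PPARGC1A ran from ADLIB in Period 2 (38.7 CPM) through RES in Period 1 (40.2) and RES in Period 2 (44.5) to ADLIB in Period 1 (49.3), and no tested pair of its groups was called. This order depends on the scale, as the mean of log2 CPM of PPARGC1A was lowest in RES in Period 2 (5.10), followed by ADLIB in Period 2 (5.13), RES in Period 1 (5.31) and ADLIB in Period 1 (5.53). The upper 2 groups of PPARA also changed places on the log2 scale, at 6.31 each to 2 decimals, while the order of CPT1A was the same on both.

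Taken over all 40 bulls, PPARGC1A differed most from bull to bull of the 3 genes. Its biological coefficient of variation, estimated by edgeR over all 40 bulls, was 48.4%, against 22.4% for PPARA, 22.6% for CPT1A and 18.4% for the median gene. Counting error was small beside it, at most 5.04% of the level at the median read count of a group for any of the 3 genes. In the fits of single periods, the coefficient of PPARGC1A was 29.4% in Period 1 and 59.3% in Period 2. PPARGC1A was not the most variable gene in RES of Period 1. There the SD of log2 CPM was 0.31 for PPARGC1A, 0.35 for PPARA and 0.30 for CPT1A.

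The spread of PPARGC1A was widest in the RES bulls of Period 2, where 4 bulls lay at 10.9, 12.4, 17.7 and 20.1 CPM and 1 at 112 CPM. The others lay at 30.8, 49.1, 56.3, 61.5 and 74.4 CPM, and neither the lowest nor the highest bull stood apart by Dixon's test. The SD of log2 CPM was 1.15 in these bulls and 0.31 in the RES bulls of Period 1, a ratio of 3.72, where the median gene had a ratio of 0.967 and 6 of 11187 genes a larger one. This comparison of spread was chosen after the values were seen, and a permutation test of the absolute deviations from the group median gave p 3.30e-04 (two-sided, 0.00396 after Benjamini-Hochberg adjustment over the 12 spreads compared). None of the other 11 spread comparisons passed, the nearest being PPARGC1A in RES against ADLIB in Period 1 (SD ratio 0.537) and in Period 2 (SD ratio 1.61), both with adjusted permutation p 0.186.

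Over the 4 groups together, bulls high in the coactivator PPARGC1A for their group tended to be low in CPT1A. With group means taken away, Pearson's r over the 40 bulls was -0.468 (permutation p 0.00562) and Spearman's rho -0.426 (permutation p 0.0115), with a Benjamini-Hochberg p of 0.0169 over the 3 pairs of genes. Without the 2 bulls farthest from the median of PPARGC1A, r was -0.439 (permutation p 0.0137). Pearson's r was -0.196 in ADLIB and -0.116 in RES in Period 1, and -0.566 in ADLIB and -0.645 in RES in Period 2. In Period 1, rho was near 0, at -0.0667 in ADLIB and 0.0303 in RES. Without the 2 farthest bulls of each group, r was -0.0783 and 0.0138 there. In Period 2, rho was -0.661 in ADLIB and -0.697 in RES, and r without the 2 farthest bulls -0.486 and -0.448. No single group passed after adjustment over the 12 relations tested within groups (smallest adjusted permutation p 0.286). A difference between the periods was not tested. Among the RES bulls of Period 2, the 3 lowest in PPARGC1A were also the 3 highest in CPT1A, at 243, 217 and 207 CPM.

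PPARA and its target CPT1A were positively related within groups, with r of 0.357 (permutation p 0.0273, adjusted 0.0410) and rho of 0.285 (permutation p 0.0886). Without the 2 bulls farthest from the median of PPARA, r was 0.294 (permutation p 0.0696) and no longer passed. With all bulls, r was positive in each group, at 0.678 in ADLIB and 0.315 in RES in Period 1 and at 0.340 in ADLIB and 0.254 in RES in Period 2. Without the 2 farthest bulls of each group it was 0.447 and 0.775 in Period 1, but -0.0515 and -0.224 in Period 2. PPARA and PPARGC1A, the receptor and its coactivator, gave r of 0.129 (permutation p 0.489) and rho of 0.176 (permutation p 0.310).

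**Figure D4:**
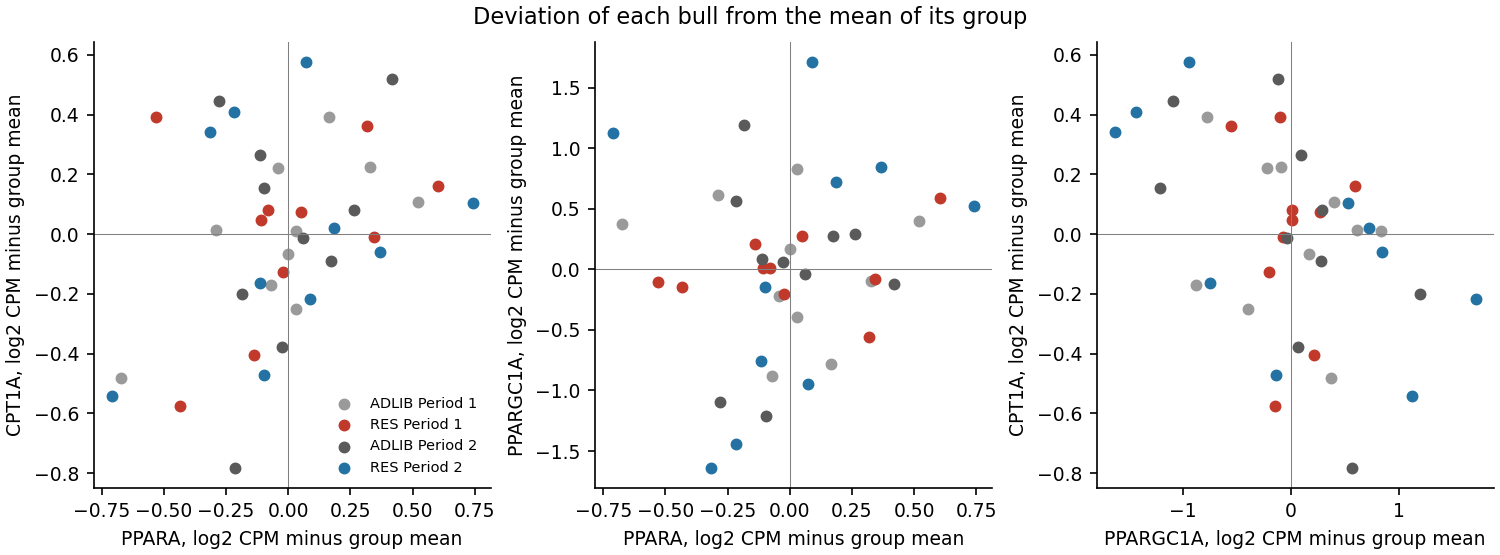
Deviation of each bull from the mean of its group in log2 CPM, for each pair of genes (points coloured by group; lines at 0). PPARGC1A and CPT1A fall from upper left to lower right (r -0.468), PPARA and CPT1A rise weakly (r 0.357), and PPARA and PPARGC1A show little relation (r 0.129).

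The percentage of reads counted on genes moved with CPT1A within groups as well as between diets. With group means taken away, r was 0.558 (permutation p 4.30e-04, adjusted 0.00129 over the 3 genes) and rho 0.451 (permutation p 0.00607), and r was 0.432 (permutation p 0.0134) without the 2 bulls farthest from the median percentage. With all bulls, r was positive in each group, at 0.425 and 0.728 in ADLIB and RES of Period 1 and at 0.793 and 0.288 in ADLIB and RES of Period 2. Without the 2 farthest bulls of each group it was 0.275, 0.329, 0.413 and -0.0128 in the same order. No single group passed after adjustment with all bulls, the smallest adjusted permutation p being 0.0834 in ADLIB of Period 2. The same relation had an r of -0.285 for PPARGC1A (permutation p 0.0869, rho -0.356 with permutation p 0.0362, adjusted p for r 0.130) and of 0.0884 for PPARA (permutation p 0.615, rho 0.211 with permutation p 0.221). After this percentage was taken out of both genes, r of PPARGC1A and CPT1A was -0.389 (adjusted permutation p 0.0630). These 3 relations with the percentage were added after the values were seen.

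**Figure D5:**
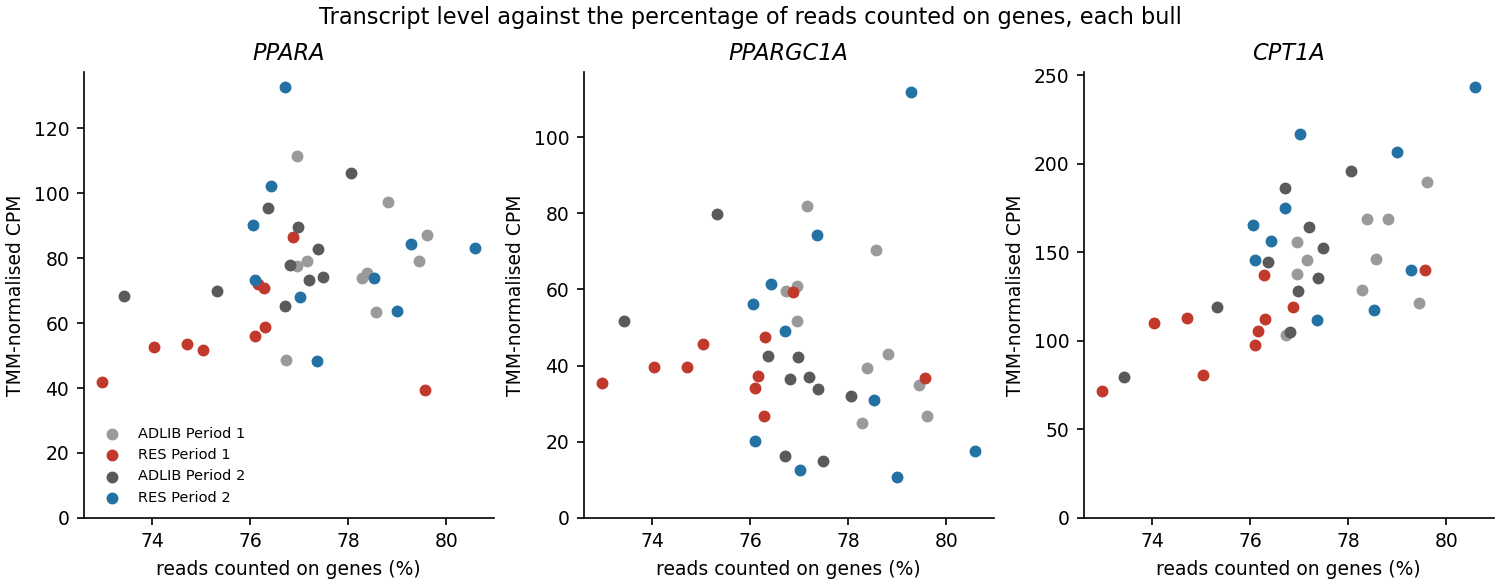
TMM-normalised CPM of each gene (vertical axis, from 0) against the percentage of reads counted on genes (horizontal axis) in each bull, coloured by group. CPT1A rises with the percentage, which averages 75.8% in RES and 78.1% in ADLIB of Period 1.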

How the data were processed

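The authors made single-end Illumina TruSeq libraries of liver RNA from 40 bulls. Per the paper and the submitters' processing notes (CASAVA 1.4, TopHat, HTSeq and edgeR), TopHat placed the reads on UMD3.1 and HTSeq counted those with a unique position on each Ensembl gene, and the deposited read counts are not normalised. Use of strand in counting is not given in the sources used here. The other deposited table, a normalised signal, is the read count multiplied by 1 constant per animal. Reads that HTSeq put on no gene or on several, and 92 spike-in entries with 0 reads, were left out. The former were 19.4 to 27.0% per animal of the reads put on 1 gene, on no gene or on several.

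Groups were taken from the labels, and the group names RES and ADLIB from the paper. The labels' design text speaks of biopsies and the paper of slaughter, and the bulls of Period 1 and Period 2 were taken as different animals. Of 180 pairs of bulls within groups, the closest had a chi-square of 19.0 per degree of freedom, so none repeated another.

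The quasi-likelihood test (edgeR 4.0.16 under R 4.3.3, robust, TMM, genes with 4 or more reads in each animal fitted) was run on the 20 animals of a period for diet and on all 40 for time and the interaction, with Benjamini-Hochberg adjustment over all genes. Calls needed FDR under 0.05 and, outside the interaction, a higher group at least 25% above the lower. On log2 CPM (prior count 2), correlations were tested with 100000 permutations within groups, and spreads and an alternative test of levels with 100000 permutations between the groups compared, all two-sided. Alternatives used DESeq2 1.42.0 and limma 3.58.1, the latter also on the deposited normalised signal with a pseudocount of 0.5. Of the tests, the quasi-likelihood test alone was first tried on simulated data. The 3 genes and the tests were chosen with earlier results of these data known, and all 3 genes are printed. Lists of pathway genes, cell type markers and genes of similar pattern, and sequences, were not analysed here, as 0 of the identifiers matched the RefSeq table at hand.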

Additional observations from a re-analysis of the deposited data

Results flagged for a closer look

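The effect of diet on CPT1A differed between the periods by a test of the difference itself. The log2 ratio of RES to ADLIB was -0.44 in Period 1 and 0.26 in Period 2, and the interaction of diet and period was 0.68 (SE 0.20, edgeR FDR 0.0252). The RES mean lay at 109 CPM against 147 CPM in ADLIB in Period 1, and at 168 CPM against 141 CPM in Period 2. The interaction was called without each of the 40 bulls in turn, and was at 0.28 (FDR 0.449) when that fit took in the percentage of reads on genes. No bull stood apart from its group by Dixon's test in any of the 12 combinations of gene and group, where 0.6 would be flagged by chance.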

How the results depend on the processing

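Each of the 3 genes had at least 112 reads in every bull. With an FDR threshold of 0.0005, PPARA (-0.45) and CPT1A (-0.44) in Period 1, the CPT1A interaction (0.68), and PPARA (0.49) and CPT1A (0.63) over time in RES were no longer called. Total-read scaling moved the median log2 fold change of all genes by 0.099 in Period 1 and by 0.12 over time in ADLIB. It ended the call of PPARA in Period 1 (-0.35, FDR 0.0893) and turned CPT1A over time in ADLIB (0.065). Taking in the percentage of reads on genes ended PPARA (-0.36) and CPT1A (-0.18) in Period 1 and the CPT1A interaction (0.28), and turned CPT1A over time in ADLIB (0.12). The cause was not tested.

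Values close to 0 changed sign without being called. PPARGC1A in Period 2 was at -0.018 with the replicate block, -0.16 with total reads as a covariate, -0.018 as a difference of mean log2 CPM and -0.016 with limma on the deposited values. PPARGC1A over time in RES was at -0.16 with limma voom, -0.18 with the replicate block, -0.079 with total reads as a covariate and -0.21 as a difference of mean log2 CPM. PPARA in Period 2 was at -0.0062 with limma voom and -0.011 with total reads as a covariate.

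Whether the replicate numbers of the labels pair the animals is not stated. In Period 1 the mean r of deviations was 0.0923 between same-numbered bulls and -0.0101 between others, with 3 of 10 closest to their own number. In Period 2 it was -0.00416 against 0.000525, with 1 of 10. In each period, 4 of 10 same-numbered pairs were over 0.1. Pairing itself was not tested. The replicate block, run all the same, changed no call, with FDR 0.00584 for PPARA and 0.00785 for CPT1A in Period 1 and 0.00361 for the CPT1A interaction.

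Without single bulls, PPARA in Period 1 ranged from -0.53 to -0.38, PPARA in Period 2 from -0.065 to 0.11 (below 0 without RES bull 5 or 6), PPARGC1A in Period 1 from -0.38 to -0.19 and in the interaction from 0.25 to 0.68, PPARGC1A in Period 2 from -0.050 to 0.39 and over time in RES from -0.10 to 0.26 (both below 0 without RES bull 9 of Period 2). Over time in ADLIB, PPARA ranged from -0.044 to 0.084 (below 0 without ADLIB bull 3 or 7 of Period 1 or 1, 3 or 10 of Period 2) and CPT1A from -0.12 to 0.013 (above 0 without ADLIB bull 7 of Period 2). The SD ratio of PPARGC1A, RES in Period 2 against Period 1, ranged from 1.75 to 2.25 on the log2 scale and was 1.81 with total-read scaling.

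The relation of PPARA and CPT1A was at 0.294 without the 2 farthest bulls, 0.323 with total-read scaling and 0.372 once the percentage of reads on genes was removed, none passing after adjustment. It ranged from 0.281 to 0.442 without single bulls and was lost without ADLIB bull 4 (adjusted permutation p 0.0526), 6 (0.0542) or 7 (0.132) or RES bull 2 (0.0515), 4 (0.0634) or 7 (0.0920) of Period 1, and without ADLIB bull 7 (0.0709) or 10 (0.0848) or RES bull 7 (0.124) of Period 2. That of PPARGC1A and CPT1A passed without each bull (-0.503 to -0.426) but not with the percentage taken out (-0.389). With total-read scaling, r with that percentage was -0.120 for PPARA and -0.364 for PPARGC1A (adjusted permutation p 0.0359). The alternatives for pathway genes in Period 1 were not run.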

Other observations

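Over the 11186 other genes whose log2 CPM averaged 1 or more, the profile of PPARA over the 40 bulls had its highest Pearson r at 0.883, and CPT1A ranked 971 in likeness to it (r 0.531), with PPARGC1A at rank 4481 (r 0.0806). For CPT1A the highest r was 0.813, with PPARA at rank 596 and PPARGC1A at rank 10049 (r -0.403). For PPARGC1A the highest r was 0.811, with 14 genes above 0.7, against 197 for PPARA and 70 for CPT1A. With group means taken away, the counts above 0.7 were 102 for PPARA, 33 for PPARGC1A and 12 for CPT1A. These are descriptions over bulls that share diet, period and library composition, and the genes concerned carry no names in the files.

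In Period 2, the 4 first numbers of the library names gave RES minus ADLIB log2 differences for CPT1A of 0.51, 0.03, 0.43 and -0.38, and for PPARA of -0.25, 0.22, 0.07 and -0.53. For PPARGC1A they were -0.87, 0.17, 0.59 and 0.07. The numbers 1 and 4 held 1 ADLIB bull each.

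In the RefSeq annotation of the later assembly ARS-UCD2.0, which is not the build of the files, no other gene overlaps PPARA or CPT1A, while 2 small RNA genes, a tRNA and an snRNA, overlap PPARGC1A. RefSeq lists 5 transcripts for PPARA, 12 for PPARGC1A and 6 for CPT1A, and the files hold 1 count for each gene over all of its transcripts.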
